A study of Mus musculus with 6 samples.

Results

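The genes described here are 32 glycolytic, gluconeogenic and hypoxia-inducible genes of mouse intestinal epithelium, chosen by name from their known roles out of 54446 genes in the deposited table. All 32 passed the filter on low counts, which left 15068 genes. They comprise 2 transporters of glucose and lactate, 13 enzymes of glycolysis, 3 enzymes of gluconeogenesis, the HIF1A subunit with 2 of its oxygen-sensing hydroxylases, and 11 further hypoxia-inducible genes.

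The knockout mice (n = 3) carried floxed alleles of Prkci, the gene of the polarity kinase aPKC iota/lambda, together with Villin-Cre. The control mice (n = 3) carried the floxed alleles without Cre, so that both genotypes share the modified locus. The Villin promoter drives Cre in intestinal epithelium, and cells of other types in a sample keep the gene. Each library is labelled with the number of a different mouse. Mice were co-housed and 3 to 4 months old, and epithelium of the small intestine, called jejunum in the titles, was released in an ice-cold wash with 30 mM EDTA and 5 mM DTT. The labels and the series text disagree on whether that wash held glucose, but they describe the same wash for both genotypes.

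Glycolysis splits glucose into pyruvate, and part of the pyruvate leaves the cell as lactate. When oxygen is low, the transcription factor HIF1A escapes hydroxylation by the EGLN enzymes, is no longer degraded, and induces many glycolytic genes along with genes of angiogenesis, acid handling and mitochondrial turnover. The intestinal mucosa is known for steep oxygen gradients, and enterocytes take up sugars from the lumen and pass most of them on to the blood.

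Sequencing gave 18972906 to 26687856 counts in the knockout libraries and 22453798 to 23008047 in the control libraries. Values of single libraries are given in the order of replicates 1 to 3 throughout. In CPM (scaled counts per 1000000 counts), Prkci stood at 21.5, 14.6 and 21.4 in knockouts, against 44.6, 46.9 and 44.0 in controls. Knockout replicate 1 stood apart from the other knockouts, at −21.9 on the first principal component of all tested genes, where the other knockouts lay at 68.0 and 50.9 and the controls between −33.3 and −30.4. That component held 54.7% of the variance. On the second, with 20.2%, knockout replicate 1 stood apart from the controls too, at −52.6 against 5.48, 29.5 and 13.2. The other knockouts lay at 11.2 and −6.77 there. By Xist and Ddx3y counts, knockout replicates 2 and 3 and control replicate 3 came from females, which goes against the sex in the series text for knockout replicate 3 and control replicates 2 and 3. Vil1, Krt8, Epcam and Cdh1 together gave 7542 to 9096 CPM in knockouts and 7348 to 7582 CPM in controls. Of these 4, 1 (Krt8) was higher in every knockout library and 0 were lower, so the ratio to Krt8 given below has a denominator that also differed. Markers of T cells (Cd3e, Cd3g, Cd8a and Cd2, 4 of 4 higher in every knockout library) summed to 69.2 to 124 CPM in knockouts and 33.6 to 58.5 CPM in controls, and those of macrophages (Itgax, Cd68, Csf1r and Lyz2, 2 of 4) to 18.6 to 30.5 CPM in knockouts and 8.67 to 10.7 CPM in controls. B and plasma cell markers (1 of 4) summed to 141 to 318 CPM in knockouts and 23.3 to 125 CPM in controls, and Paneth cell markers (2 of 4 lower) to 417 to 876 CPM in knockouts and 1204 to 4264 CPM in controls. Smooth muscle markers stood at 25.5, 1.00 and 52.5 CPM in knockouts and 1.28 to 3.06 CPM in controls. For each 1000 counts of Krt8 there were 4.74 ± 0.848 counts of Vim, a filament gene of mesenchyme and leukocytes, in knockouts and 2.66 ± 0.151 in controls (SD, n = 3 each, exact two-sided permutation p = 0.1, the smallest possible). The part of these cells in the results below was not tested, and in bulk RNA fewer cells of a type cannot be told apart from less RNA per cell.

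None of the 32 genes passed the threshold of the main test, edgeR's quasi-likelihood test with Benjamini-Hochberg adjustment over all genes at 0.05, which called 9 of 15068 genes (0.0597%; 0 with the replicate block). At an unadjusted p under 0.05 there were 7 of the 32 (21.9%), against 16.4% of all genes tested. These were 6 higher and 1 lower in knockouts, where all genes gave 9.32% higher and 7.09% lower. DESeq2 called 4 (12.5%), against 5.55% of all genes, and all 4 were higher, against 3.60%. The edgeR test without the filter on low counts called 2, against 1.01% of all genes. The 7 were Hk2, Slc2a1, Slc16a3, Car9, Ankrd37 and Ero1l, with higher levels in knockouts, and Ndrg1, with a lower level. The genotypes did not overlap for 4 of the 32 (12.5%), a smaller share than the 21.8% of all genes, and all 4 were higher in knockouts, where 10.0% of all genes were higher and 11.7% lower. The median log2 fold change of the 32 genes was 0.12, with 21 positive and 11 negative values, against a median of 0.0061 over all genes tested. Without knockout replicate 1, the test called 10 of the 32 genes (31.2%), against 17.5% of all genes. Of these 5 were higher (Car9, Slc2a1, Hk2, Slc16a3, Ero1l) and 5 lower (Egln1, Egln3, P4ha1, Ddit4, Ndrg1), where all genes gave 10.0% higher and 7.44% lower. By Xist and Ddx3y, replicate 1 was also the only male knockout, and the part of sex in its difference was not tested. With sex as a covariate in all 6 libraries, 0 of the 32 were called. The main test of these libraries without the covariate also called 0, so this count cannot show a part of sex. Log2 fold changes of the 10 genes with the covariate were 0.38 (Ero1l) to 1.20 (Hk2) for the higher and −1.03 (Ndrg1) to −0.15 (Egln1) for the lower. In the main test of the same 6 libraries they were 0.54 (Ero1l) to 1.69 (Hk2) and −1.05 (Ndrg1) to −0.21 (Egln1).

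**Figure D1:**
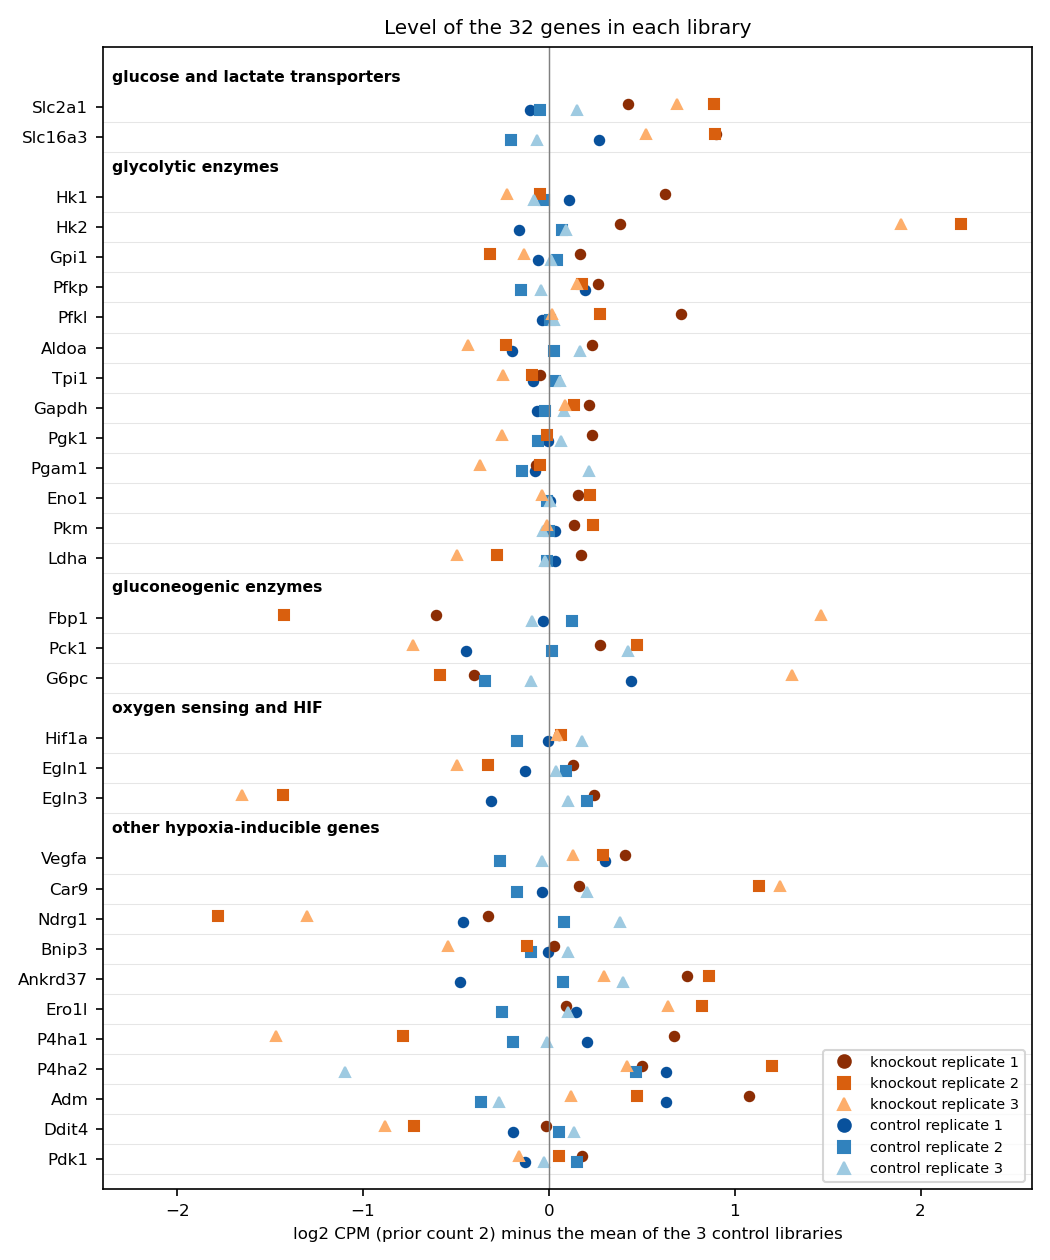
Level of each of the 32 genes in each library, as log2 CPM (prior count 2) minus the mean of the 3 control libraries, with knockouts in orange tones above controls in blue tones on each line and genes grouped by role. The transporters and Hk2 lie right of the controls in every knockout, most glycolytic enzymes lie near 0, and Egln3, Ndrg1, P4ha1 and Ddit4 lie far to the left in knockout replicates 2 and 3 but not in knockout replicate 1.

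The transporter genes for glucose entry and lactate exit were higher in every knockout library. Slc2a1 encodes the basal glucose transporter GLUT1. Slc2a1 (ENSMUSG00000028645.11, mm10 chr4:119108711-119137983) stood at 25.7, 35.4 and 30.8 CPM in knockouts, against 17.8, 18.5 and 21.2 CPM in controls. The lowest knockout thus lay above the highest control, and the log2 fold change was 0.68 (SE 0.15, edgeR adjusted p = 0.127, from 0.00755 with DESeq2 to 0.429 over 14 alternative settings). Slc16a3 encodes MCT4, a proton-coupled exporter of lactate. Slc16a3 (ENSMUSG00000025161.16, chr11:120948480-120960868) had 142, 142 and 110 CPM in knockouts and 92.0, 66.4 and 73.1 CPM in controls. Knockout replicate 1 was as high as replicate 2 for this gene, the groups did not overlap, and the log2 fold change was 0.77 (SE 0.16, edgeR adjusted p = 0.120, from 0.00377 with DESeq2 to 0.426).

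Hk2 encodes an inducible hexokinase that binds mitochondria and traps glucose as glucose 6-phosphate. Hk2 (ENSMUSG00000000628.10, chr6:82725025-82774454) stood at 48.1, 172 and 138 CPM in knockouts, against 33.0, 38.7 and 39.3 CPM in controls. The difference was small in knockout replicate 1 and large in replicates 2 and 3, and the groups did not overlap. Its log2 fold change of 1.69 was the largest among the 32 genes (SE 0.42, edgeR adjusted p = 0.148, from 0.000302 without knockout replicate 1 to 0.438 over these settings). With sex by Xist and Ddx3y as a covariate it was 1.20 (SE 0.37, adjusted p = 0.264). Summed markers of proliferating cells (Mki67, Top2a, Ccnb1, Pcna) stood at 159, 433 and 356 CPM in the same knockouts and at 178, 288 and 187 CPM in controls, and their part in the Hk2 values was not tested.

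The promoters of these 3 genes are shown because HIF dimers are known to bind the core letters ACGTG or GCGTG, and these were, beside Gapdh, the genes of the set whose lowest knockout lay above the highest control. Each line gives the 250 bases before the RefSeq start site (GRCm38.p6, the assembly of mm10), 5′ to 3′ on the gene's strand, with every match to ACGTG or GCGTG on either strand in capitals. The windows are chr4:119108495-119108744 (+) for Slc2a1, chr6:82774455-82774704 (−) for Hk2 and chr11:120948817-120949066 (+) for Slc16a3.
Slc2a1: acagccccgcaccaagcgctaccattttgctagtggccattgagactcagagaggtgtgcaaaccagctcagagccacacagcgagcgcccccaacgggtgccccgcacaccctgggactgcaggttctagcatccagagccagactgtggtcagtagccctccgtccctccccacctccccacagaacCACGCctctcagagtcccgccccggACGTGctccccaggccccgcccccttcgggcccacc
Hk2: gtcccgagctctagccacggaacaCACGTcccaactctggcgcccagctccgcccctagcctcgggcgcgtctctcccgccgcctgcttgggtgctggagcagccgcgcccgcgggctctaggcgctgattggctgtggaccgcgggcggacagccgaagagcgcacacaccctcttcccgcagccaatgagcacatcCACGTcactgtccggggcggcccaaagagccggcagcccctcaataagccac
Slc16a3: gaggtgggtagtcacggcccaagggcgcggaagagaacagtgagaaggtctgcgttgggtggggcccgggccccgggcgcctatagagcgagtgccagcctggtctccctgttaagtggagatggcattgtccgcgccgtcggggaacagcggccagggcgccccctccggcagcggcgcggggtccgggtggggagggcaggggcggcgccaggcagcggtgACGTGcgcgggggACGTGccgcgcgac
Each of the 3 windows held 2 matches, within 61 bases of the start for Slc2a1 and within 27 for Slc16a3, and at 226 and 52 bases before it for Hk2. Of the 40 windows of 31 members with a RefSeq promoter, 30 (75.0%) held a match, against 38.6% of 32851 windows of all genes, and their median GC content was 62.8% against 52.4%. Such matches are letters in a window and are no measure of binding.

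The other enzymes of glycolysis had fold changes close to 1. Of the 13 glycolytic enzymes, 12 had log2 fold changes between −0.17 and 0.36, all with an edgeR adjusted p of 0.356 or more, and Hk2 was the exception. The median over the 13 was 0.12. Ldha, the subunit of lactate dehydrogenase that favours lactate formation, had the most counts of the 13. Ldha stood at 1494, 1094 and 942 CPM in knockouts, against 1354, 1315 and 1308 CPM in controls. Knockout replicate 1 thus lay above the controls and replicates 2 and 3 below them, with a log2 fold change of −0.17 (SE 0.19, edgeR adjusted p = 0.671).

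Gapdh, the dehydrogenase that yields NADH in the middle of the pathway, had 400.0, 378.5 and 366.1 CPM in knockouts and 329.8, 340.5 and 365.7 CPM in controls. The groups did not overlap, but the lowest knockout and the highest control were almost level, and the log2 fold change was 0.14 (SE 0.11, edgeR adjusted p = 0.528). Pkm, which makes pyruvate, had 565 ± 48.8 CPM in knockouts and 519 ± 11.6 CPM in controls, and the triose isomerase gene Tpi1 had 415 ± 29.6 and 453 ± 24.0 CPM (SD, n = 3 each). Pgk1, which yields ATP by substrate phosphorylation, averaged 81.9 ± 13.8 CPM in knockouts and 81.8 ± 3.67 CPM in controls. Gpi1, Aldoa, Pgam1 and Eno1, which act between the hexose and phosphoenolpyruvate stages, had log2 fold changes of −0.082, −0.13, −0.17 and 0.12. Reads of Eno1 and Aldoa could be shared with near-identical copies, but Eno1b and Aldoart1 had at most 4 and 5 counts in any library, and a further locus named Aldoa at most 12.

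The isoform pairs kept their order of abundance per transcript length. On the RPKM scale (scaled reads per kilobase of annotated exons), Hk2 averaged 20.0 ± 10.7 in knockouts and 6.20 ± 0.577 in controls, and Hk1, the constitutive hexokinase, 2.31 ± 0.764 and 2.07 ± 0.142 (SD, n = 3 each). Hkdc1, a hexokinase-related gene of the gut outside the 32, was the most abundant of the 3 per length, at 85.4 ± 5.38 RPKM in knockouts and 106 ± 5.34 RPKM in controls. In CPM, Hkdc1 had 466, 411 and 438 in knockouts and 524, 528 and 574 in controls, without overlap (log2 fold change −0.31, SE 0.12, edgeR adjusted p = 0.262). Pfkp, the platelet-type phosphofructokinase, averaged 32.4 ± 1.32 RPKM in knockouts and 28.4 ± 3.55 RPKM in controls, and the liver-type Pfkl 7.18 ± 1.78 and 5.58 ± 0.133 RPKM. In CPM, Pfkp had 454, 428 and 420 in knockouts and 433, 341 and 368 in controls, and Pfkl 61.0, 45.0 and 37.8 in knockouts and 36.3, 37.5 and 38.0 in controls. Both overlapped between genotypes (edgeR adjusted p = 0.487 and 0.356). Hk1 had 27.2, 17.0 and 15.0 CPM in knockouts and 19.0, 17.3 and 16.6 CPM in controls (edgeR adjusted p = 0.747). Knockout replicate 1 was the highest of the 6 libraries for Pfkp, Pfkl and Hk1.

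**Figure D2:**
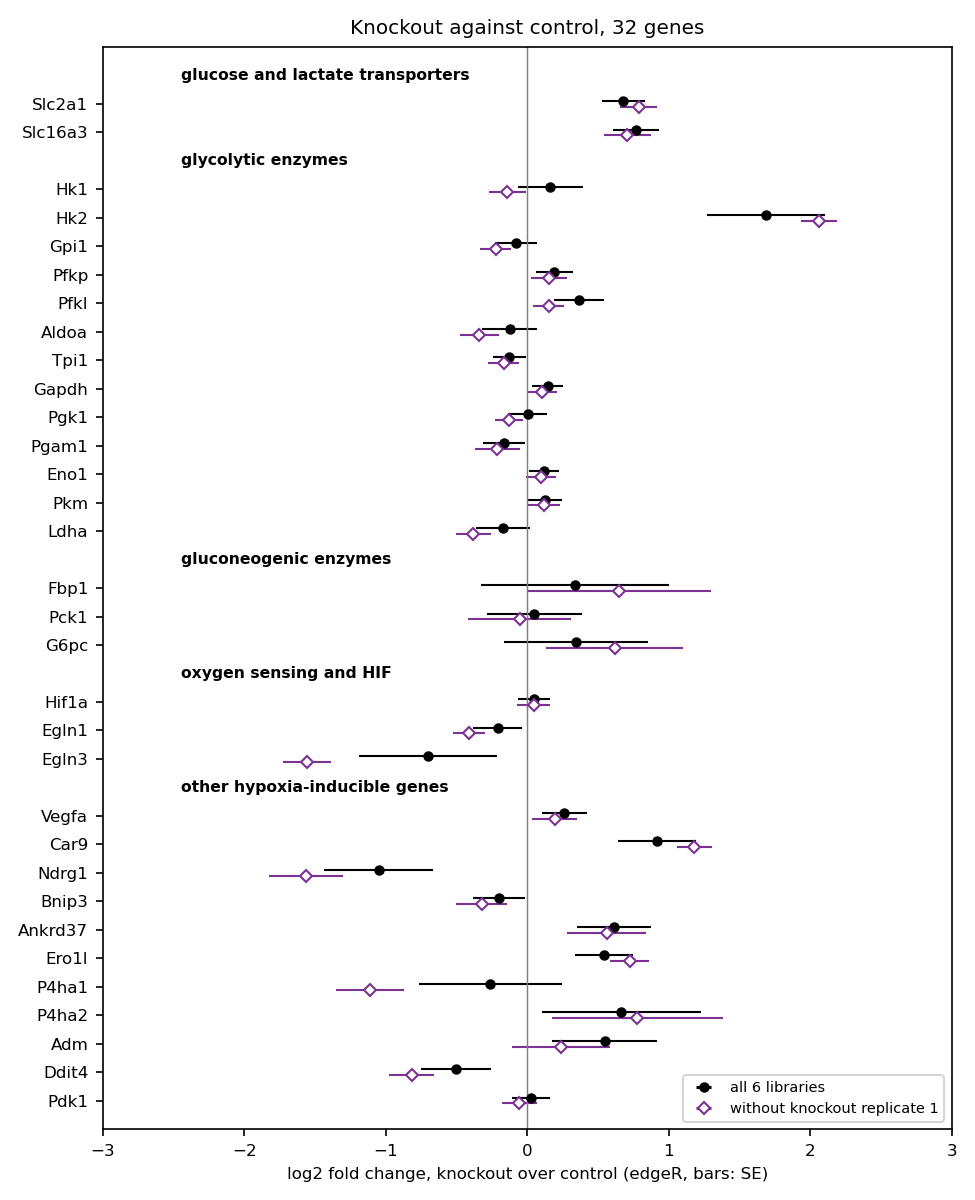
Log2 fold change of knockout over control for each of the 32 genes, by edgeR with bars of 1 SE, from all 6 libraries (black) and without knockout replicate 1 (open purple). Apart from Hk2, the glycolytic enzymes lie between −0.38 and 0.36 in both sets, while Egln3 moves to −1.56 and P4ha1 to −1.11 in the second.

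The oxygen-sensing genes differed from one another. Hif1a, the regulated HIF subunit, had 125, 126 and 124 CPM in knockouts and 120, 107 and 136 CPM in controls, with a log2 fold change of 0.046 (SE 0.11, edgeR adjusted p = 0.865). The knockouts lay within the range of the controls. Egln3, a prolyl hydroxylase that marks HIF for degradation and is itself induced by it, had 282, 88.4 and 76.1 CPM in knockouts, against 193, 276 and 257 CPM in controls. Knockout replicate 1 lay above every control, and replicates 2 and 3 lay far below them all. The log2 fold change was −0.70 with all 6 libraries (SE 0.49, edgeR adjusted p = 0.496) and −1.56 without knockout replicate 1 (SE 0.17, adjusted p = 0.00223, with a range up to 0.807 over these settings). Egln1, the main hydroxylase of HIF in most tissues, followed the same order with a smaller spread, at 46.0, 33.5 and 29.7 CPM in knockouts and 38.4, 44.7 and 43.1 CPM in controls. Its log2 fold change was −0.21 (SE 0.17, edgeR adjusted p = 0.570), and −0.41 without knockout replicate 1 (SE 0.11, adjusted p = 0.0458, with a range up to 0.916).

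Among the 11 further hypoxia-inducible genes, 7 had a positive and 4 a negative log2 fold change, and 1 (Car9) was called by DESeq2. Car9, a membrane carbonic anhydrase that handles acid outside the cell, stood at 38.6, 75.6 and 81.7 CPM in knockouts, against 33.6, 30.6 and 39.7 CPM in controls. Replicates 2 and 3 were above every control and replicate 1 was among them, which gave a log2 fold change of 0.92 (SE 0.27, edgeR adjusted p = 0.194, from 0.00182 without knockout replicate 1 to 0.471). The locus of Car9 overlaps the antisense gene Gm12454, which had 12.4% as many counts, so that the split of reads between them is uncertain. Ero1l, an oxidase of disulfide formation in the endoplasmic reticulum, had 88.1, 146 and 129 CPM in knockouts and 91.5, 69.5 and 88.8 CPM in controls. The same pair of knockouts was high, and the log2 fold change was 0.54 (SE 0.20, edgeR adjusted p = 0.262, from 0.0134 without knockout replicate 1 to 0.532).

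Ankrd37, an ankyrin-repeat gene and known HIF target, had 14.0, 15.1 and 10.2 CPM in knockouts and 5.94, 8.75 and 11.0 CPM in controls, with overlap and a log2 fold change of 0.61 (SE 0.26, edgeR adjusted p = 0.301). Its locus overlaps Ufsp2, which had 283% as many counts, so that the split of reads between them is uncertain. The angiogenic factor gene Vegfa had 118, 109 and 96.8 CPM in knockouts and 109, 73.8 and 86.4 CPM in controls, and the vasodilator peptide gene Adm averaged 5.00 ± 1.75 CPM in knockouts and 3.41 ± 1.43 CPM in controls (SD, n = 3 each). Both overlapped between genotypes, with edgeR adjusted p = 0.448 and 0.484. Summed markers of endothelium (Pecam1, Cdh5, Kdr, Vwf) stood at 13.4, 2.61 and 3.52 CPM in the same knockouts, against 2.25 to 3.68 CPM in controls, and their part in Adm and Vegfa was not tested. Pdk1, a kinase that closes pyruvate dehydrogenase, averaged 36.2 ± 4.28 CPM in knockouts and 35.6 ± 3.54 CPM in controls, and the mitophagy receptor gene Bnip3 8.90 ± 1.75 and 10.2 ± 0.713 CPM (SD, n = 3 each).

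The hypoxia-inducible genes with lower values in knockouts were low in replicates 2 and 3. Ndrg1, a stress-responsive gene of differentiated epithelium, had 68.4, 24.9 and 34.8 CPM in knockouts and 62.4, 90.9 and 112 CPM in controls. Replicate 1 overlapped the controls, and the log2 fold change of −1.05 was the lowest of the 32 genes (SE 0.38, edgeR adjusted p = 0.248, from 0.00902 without knockout replicate 1 to 0.572). Ddit4, an inhibitor of mTORC1 signalling under stress, had 15.1, 9.19 and 8.25 CPM in knockouts and 13.4, 15.9 and 16.8 CPM in controls (log2 fold change −0.50, SE 0.25, edgeR adjusted p = 0.359, from 0.0148 without knockout replicate 1 to 0.674). P4ha1, a catalytic subunit of collagen prolyl hydroxylase, had 18.8, 6.80 and 4.20 CPM in knockouts and 13.6, 10.3 and 11.7 CPM in controls. The 3 knockouts lay on both sides of the controls, with replicate 1 above them and the others below, and the log2 fold change was −0.26 (SE 0.50, edgeR adjusted p = 0.820), against −1.11 without knockout replicate 1 (SE 0.24, adjusted p = 0.0221, with a range up to 0.987). Summed fibroblast markers (Col1a1, Col3a1, Dcn, Pdgfra) were highest in knockout replicate 1 as well, at 36.7, 2.00 and 16.5 CPM in knockouts and 1.45 to 10.7 CPM in controls, and their part in P4ha1 was not tested. Its paralog P4ha2 was near the limit of detection, with 11 to 22 counts in knockouts and 3 to 14 in controls.

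Promoter windows of 4 genes that stood on opposite sides of the controls in knockout replicates 2 and 3 are shown with the same marking, Car9 and Ero1l from the high side and Egln3 and P4ha1 from the low side. The windows are chr4:43506776-43507025 (+) for Car9, chr14:45318573-45318822 (−) for Ero1l, chr12:54203875-54204124 (−) for Egln3 and chr10:59323046-59323295 (+) for P4ha1.
Car9: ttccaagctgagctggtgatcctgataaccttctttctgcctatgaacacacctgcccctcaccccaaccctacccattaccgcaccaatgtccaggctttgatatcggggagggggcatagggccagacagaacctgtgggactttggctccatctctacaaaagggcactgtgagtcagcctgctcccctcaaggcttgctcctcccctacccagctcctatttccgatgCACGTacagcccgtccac
Ero1l: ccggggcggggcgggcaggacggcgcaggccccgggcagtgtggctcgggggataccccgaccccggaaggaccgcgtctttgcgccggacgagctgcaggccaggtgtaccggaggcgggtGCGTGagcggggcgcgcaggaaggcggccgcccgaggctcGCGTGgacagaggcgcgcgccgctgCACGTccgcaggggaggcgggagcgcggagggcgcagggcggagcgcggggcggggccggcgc
Egln3: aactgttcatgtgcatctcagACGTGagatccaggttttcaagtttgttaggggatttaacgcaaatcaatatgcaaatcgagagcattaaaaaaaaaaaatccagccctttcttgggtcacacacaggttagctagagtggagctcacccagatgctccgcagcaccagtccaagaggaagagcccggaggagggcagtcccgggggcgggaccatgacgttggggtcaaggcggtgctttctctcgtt
P4ha1: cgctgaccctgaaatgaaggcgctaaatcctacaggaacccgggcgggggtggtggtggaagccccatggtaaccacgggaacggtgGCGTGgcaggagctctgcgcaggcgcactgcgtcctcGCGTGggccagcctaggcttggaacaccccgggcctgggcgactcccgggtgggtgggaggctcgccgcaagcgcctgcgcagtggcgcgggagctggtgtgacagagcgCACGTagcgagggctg
Genes of both sides held the letters, with 1 match in Car9 and Egln3 and 3 in Ero1l and P4ha1. The match in Car9 lay 18 bases before the start and that in Egln3 229 bases before it. Among the other genes low in knockout replicates 2 and 3, the first window held 5 matches in Ldha and Bnip3, 2 in Egln1 and Ddit4, 1 in Aldoa and 0 in Gpi1 and Tpi1. CACGTG is counted here once on each strand, so the 5 matches formed 3 separate stretches in Ldha and 4 in Bnip3.

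**Figure D3:**
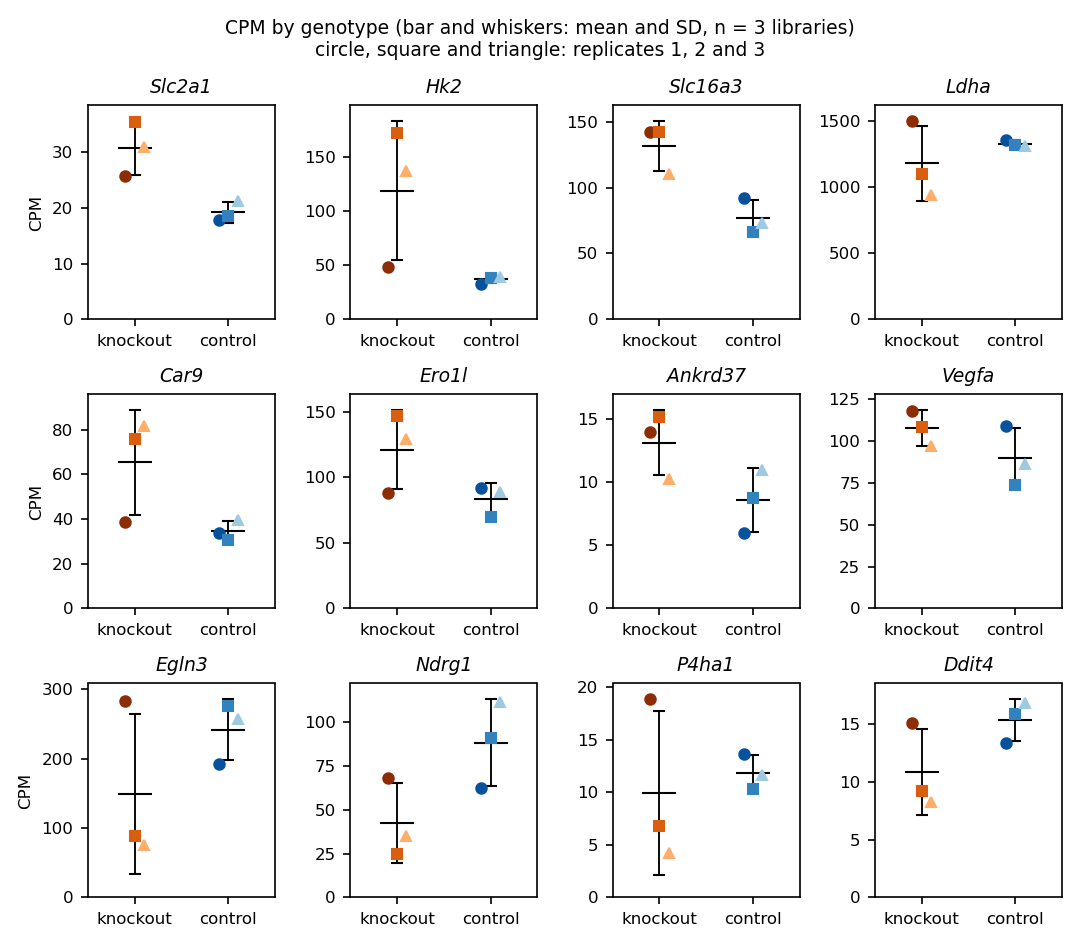
CPM of 12 of the 32 genes by genotype, knockout left of control, with each library as a point, the mean as a bar and the SD as whiskers (n = 3). Slc2a1, Hk2 and Slc16a3 do not overlap between genotypes, Car9 and Ero1l are high in knockout replicates 2 and 3 (square, triangle), and Egln3, Ndrg1, P4ha1 and Ddit4 are low in the same libraries.

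Counted over all 32 genes, the knockout libraries differed in where they lay relative to the controls. In knockout replicate 1, 20 genes (62.5%) lay above every control and 2 (6.25%) below, where 31.0% and 32.6% of all tested genes did. In knockout replicate 2 there were 12 above and 12 below (37.5% each), against 35.8% and 37.3% of all genes, and in replicate 3 there were 8 above (25.0%) and 16 below (50.0%), against 33.0% and 33.6%. For 10 genes (31.2%) replicates 2 and 3 but not replicate 1 lay below every control, against 14.8% of all genes, and for 2 (6.25%, Car9 and Ero1l) they lay above, against 15.6%. The 10 low ones were Gpi1, Aldoa, Tpi1, Ldha, Egln1, Egln3, Ndrg1, Bnip3, P4ha1 and Ddit4. For 6 of the 10 (18.8%, against 6.39% of all genes), replicate 1 lay above every control, namely Gpi1, Aldoa, Ldha, Egln1, Egln3 and P4ha1. Values just outside a control's range count in these shares, and genes of a library share its scaling.

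The mean log2 level of the 32 genes, relative to the controls, was 0.24, 0.069 and −0.013 in knockouts, against −0.00041, −0.034 and 0.034 in the controls. The mean over knockouts exceeded that of the controls by 0.099, which was less than the spread of the knockouts (SD 0.13), and scaled by library totals the difference was −0.013. Leaving out 1 library at a time gave 0.027 (without knockout replicate 1) to 0.17 (without knockout replicate 3). The transporters stood at 0.66, 0.89 and 0.61 in knockouts and −0.13 to 0.083 in controls, the only one of the 5 roles in which every knockout lay above every control. The mean level of 32 other hypoxia-inducible genes, those tested of a list of 40 outside the members, did the same, at 0.23, 0.27 and 0.23 in knockouts and −0.091 to 0.080 in controls. Single genes of that list were divided, with 15 positive and 17 negative log2 fold changes, a median of −0.024 and a largest value of 4.16. The mean level therefore does not stand for most of its genes. The oxygen-sensing genes stood at 0.14, −0.56 and −0.70 in knockouts and −0.15 to 0.11 in controls.

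**Figure D4:**
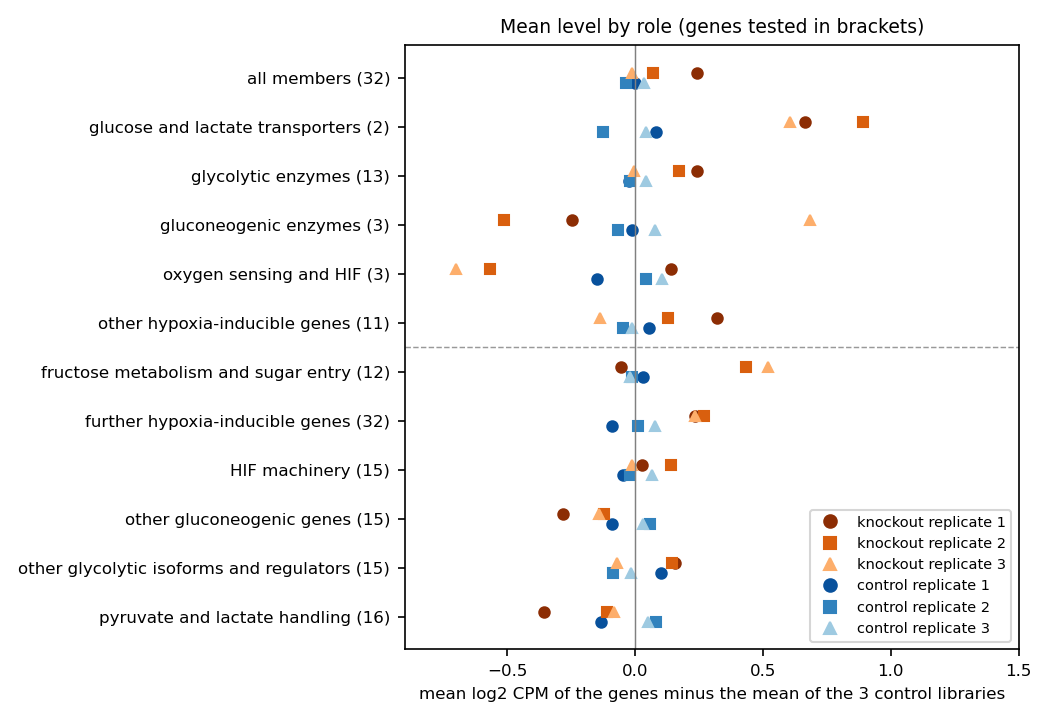
Mean log2 CPM of each group of genes in each library minus the mean of the 3 controls, for all 32 genes, for their 5 roles and, under the dashed line, for 6 lists of other genes of the same pathways, with the number of genes tested in brackets. The transporters stand between 0.61 and 0.89 in the knockouts, above the controls, and the mean of all 32 genes stays between −0.034 and 0.24 in every library.

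The gluconeogenic enzymes differed in order across the knockouts. Fbp1, a fructose-bisphosphatase, had 10.3, 5.79 and 43.6 CPM in knockouts, against 15.4, 17.2 and 14.7 CPM in controls. G6pc, the glucose 6-phosphatase that releases free glucose, had 21.2, 18.7 and 69.8 CPM in knockouts and 38.2, 22.2 and 26.3 CPM in controls. Knockout replicate 3 was far above all other libraries for both genes, and the other knockouts were below every control. Their log2 fold changes were 0.34 for each (SE 0.66 and 0.51, edgeR adjusted p = 0.823 and 0.758), and without knockout replicate 3 they were −0.96 and −0.52. Pck1, which forms phosphoenolpyruvate and had the most counts of the 3, went the other way in that library, at 247, 282 and 123 CPM in knockouts and 149, 206 and 274 CPM in controls (edgeR adjusted p = 0.950).

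Genes of fructose handling outside the 32 were set beside Fbp1 and G6pc after their values were seen. The fructose transporter gene Slc2a5 had 161, 225 and 541 CPM in knockouts and 191, 177 and 219 CPM in controls. Knockout replicate 3 was the highest of the 6 libraries for Fbp1, G6pc and Slc2a5. Slc2a5 did not pass the test (edgeR adjusted p = 0.459). Khk, which phosphorylates fructose, had 172, 131 and 206 CPM in knockouts and 227, 209 and 200 CPM in controls. Feeding before tissue collection is not given in the sources used here.

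**Figure D5:**
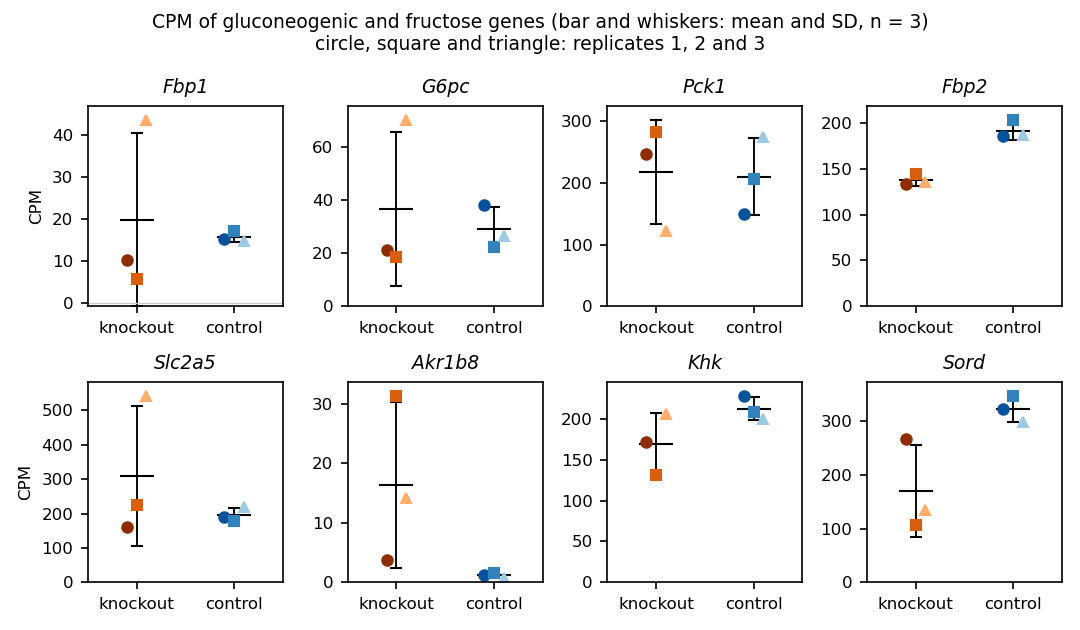
CPM of 4 gluconeogenic genes (top) and 4 genes of fructose metabolism and sugar entry (bottom) by genotype, knockout left of control, with each library as a point, the mean as a bar and the SD as whiskers (n = 3). Fbp1, G6pc and Slc2a5 are highest in knockout replicate 3 (triangle), while Fbp2 is lower in all 3 knockouts than in any control.

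Further genes of these pathways were taken from 6 lists of 119 genes, of which 105 were tested. No gene of these lists was called by edgeR, and 24 (22.9%) had an unadjusted p under 0.05, against 16.4% of all genes. Of these 9 (8.57%) were higher and 15 (14.3%) lower in knockouts, against 9.32% and 7.09% of all genes. DESeq2 called 12 (11.4%, 7 higher and 5 lower), against 5.55% of all genes. Their median log2 fold change was −0.011. Of 15 other gluconeogenic genes 3 (20.0%) were at an unadjusted p under 0.05, close to the 16.4% of all genes, and all 3 were lower, against 7.09%. Fbp2, the second fructose-bisphosphatase, had 133, 144 and 135 CPM in knockouts and 185, 202 and 186 CPM in controls, without overlap (log2 fold change −0.48, SE 0.098, edgeR adjusted p = 0.118, from 0.000632 with DESeq2 to 0.426). Glud1, the glutamate dehydrogenase that feeds carbon into the citric acid cycle, had 210, 224 and 212 CPM in knockouts and 359, 380 and 400 CPM in controls, without overlap (log2 fold change −0.82, SE 0.10, edgeR adjusted p = 0.0719, from 9.00e-12 with DESeq2 to 0.399). Ppargc1a, a coactivator of mitochondrial and gluconeogenic genes, had 116, 65.9 and 62.0 CPM in knockouts and 120, 157 and 140 CPM in controls (edgeR adjusted p = 0.213). Gpt2, an alanine aminotransferase, had 6.68, 3.66 and 5.01 CPM in knockouts and 5.90, 8.08 and 9.33 CPM in controls (edgeR adjusted p = 0.330).

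Of 16 genes of pyruvate and lactate handling, 1 (6.25%, Ldhd) was higher and 4 (25.0%) were lower at an unadjusted p under 0.05, against 9.32% and 7.09% of all genes. Mpc1, a subunit of the mitochondrial pyruvate carrier, had 15.3, 12.2 and 11.1 CPM in knockouts and 16.3, 19.7 and 18.8 CPM in controls. Pdha1, the catalytic subunit of pyruvate dehydrogenase, had 147, 147 and 153 CPM in knockouts and 160, 212 and 195 CPM in controls. Both genes were lower in every knockout than in any control, with log2 fold changes of −0.51 (SE 0.16) and −0.34 (SE 0.13) and edgeR adjusted p of 0.210 and 0.258. Slc16a7, a lactate and pyruvate transporter, had 0.607, 0.305 and 0.360 CPM in knockouts and 1.10, 3.21 and 1.84 CPM in controls (edgeR adjusted p = 0.121), and Pdp2, the phosphatase that reopens pyruvate dehydrogenase, 40.9, 61.7 and 53.0 CPM and 76.5, 70.7 and 63.9 CPM (edgeR adjusted p = 0.253). The knockout values of Slc16a7 were near the limit of detection. Of 15 other glycolytic genes Hkdc1 was the only one (6.67%) at an unadjusted p under 0.05, and Adpgk, Pklr and Bpgm followed with log2 fold changes of 0.67, 0.22 and 0.22 (edgeR adjusted p = 0.373, 0.444 and 0.466). Of 12 genes of sugar entry and fructose metabolism 2 (16.7%) were at an unadjusted p under 0.05, close to the share of all genes. Akr1b8, an aldo-keto reductase, was higher (3.74, 31.2 and 14.1 CPM in knockouts and 1.32, 1.58 and 0.712 CPM in controls) and Sord, the sorbitol dehydrogenase that makes fructose, was lower (266, 106 and 135 CPM, and 321, 345 and 298 CPM), at edgeR adjusted p of 0.117 and 0.236. Akr1b7, a close relative of Akr1b8 with which reads may be shared, had 34.1, 198 and 152 CPM in knockouts and 61.1, 57.5 and 61.7 CPM in controls (edgeR adjusted p = 0.364).

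Of 15 genes of the HIF machinery 2 (13.3%) were at an unadjusted p under 0.05, against 16.4% of all genes. Arnt2, a partner of HIF alpha subunits best known from neural tissue, was higher in every knockout, at 15.6, 24.3 and 16.7 CPM against 7.30, 5.42 and 5.40 CPM in controls (log2 fold change 1.64, SE 0.23, edgeR adjusted p = 0.0719, from 9.41e-08 with DESeq2 to 0.412). Cited2, an inhibitor of HIF that competes for the coactivator p300, was lower, at 27.1, 34.1 and 40.2 CPM in knockouts and 47.2, 64.0 and 55.1 CPM in controls (log2 fold change −0.71, SE 0.18, edgeR adjusted p = 0.150). Next by p came Crebbp, a coactivator of HIF, and Hif1an, an asparagine hydroxylase that limits HIF activity. Both were lower in every knockout than in any control, but by small log2 differences of −0.16 and −0.13 (SE 0.096 and 0.092, edgeR adjusted p = 0.448 and 0.491). Of 32 further hypoxia-inducible genes 6 (18.8%) were higher and 5 (15.6%) lower at an unadjusted p under 0.05, against 9.32% and 7.09% of all genes. Mxi1, a MYC antagonist, had 174, 216 and 193 CPM in knockouts and 141, 131 and 125 CPM in controls (edgeR adjusted p = 0.120). Gbe1, the glycogen branching enzyme, had 6.22, 3.01 and 4.00 CPM in knockouts and 10.6, 11.2 and 13.0 CPM in controls (edgeR adjusted p = 0.113). Mt1, a metallothionein, had 391, 641 and 529 CPM in knockouts and 22.8, 46.2 and 162 CPM in controls (edgeR adjusted p = 0.148), and the heme oxygenase gene Hmox1 1.42, 2.88 and 4.77 CPM and 0.792, 0.792 and 0.795 CPM (edgeR adjusted p = 0.135). The control values of Hmox1 were near the limit of detection.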

How the data were processed

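RNA from jejunal epithelium of 6 mice was sequenced, 3 per genotype. The authors deposited raw gene counts, in whole numbers. STAR 2.5.0a, bcl2fastq 2.17, FastQC, Trim Galore and the build mm10 are named, per the submitters' processing notes. How reads were counted, on which strand and with which annotation is not given in the sources used here. Overlapping genes may therefore share reads. All 32 genes were matched by symbol, and the second identifier named Aldoa was left out.

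Counts were scaled by TMM, filtered with filterByExpr (minimum count 10) and tested with edgeR 4.0.16 (quasi-likelihood, genotype as the term, two-sided, Benjamini-Hochberg over all genes, threshold 0.05) in R 4.3.3. The script was tested on simulated data. Alternatives were other scalings and filters, DESeq2 1.42.0, limma 3.58.1 (voom), a replicate block, sex by transcripts as a covariate, leaving out each library, and, chosen after seeing the data, leaving out 3 libraries whose Xist and Ddx3y go against the sex in the series text. The last leaves 2 knockouts and 1 control, whose spread is taken from the knockouts alone, so its tests can hardly call a gene and only its fold changes are given. The columns of both genotypes are numbered 1 to 3. Deviations from the genotype means correlated by 0.117, 0.119 and 0.149 for equal numbers and by −0.143 to 0.00929 for unequal ones. The replicate block took equal numbers as pairs, from the data and the titles and not from a stated batch. The main test and the other alternatives did not use these pairs.

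Levels are CPM, and RPKM by union exon length of GENCODE annotation. Promoter windows are from RefSeq on GRCm38.p6. Ero1l was matched by gene ID, and Ndrg1 was not matched. The core letters ACGTG and GCGTG were searched on both strands. CACGTG, in 6.02% of all windows, holds the letters on each strand and so counts once for each. Genes with values in every library were those with an unadjusted p under 0.05, no overlap, the most counts or extreme fold changes, or in an isoform pair. Other pathway genes were up to 4 per list with the smallest p. The remaining genes named were added for their role after their values were seen. Members and lists were chosen with earlier results of these data known.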

Additional observations from a re-analysis of the deposited data

How the results depend on the processing

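With 3 mice per genotype, 1 library decides many values. The number of genes called, 9 by edgeR, was 16 with library totals, 284 with no filter, 836 with DESeq2, 5 with limma-voom, 0 with the replicate block and 0 to 2700 when each library was left out, where 2700 was without knockout replicate 1. Of the 32 genes, 0 by edgeR, 2 were called with no filter, 4 with DESeq2 and 0 to 10 when each library was left out. Of the other pathway genes, 0 by edgeR, 7 were called with no filter, 12 with DESeq2 and 0 to 26 when each library was left out. The replicate block changed no other call. Without the 3 libraries against the sex in the series text, 2 knockouts and 1 control remain, too few to call much, so no count is given and that setting says nothing of the stability of calls. Library totals moved the median log2 fold change of all genes by −0.11.

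Of 479 alternative fold changes of the 32 genes, 435 kept direction and call, 16 passed the threshold and 28 changed sign, in 13 genes with log2 fold changes near 0 or discordant knockouts. With library totals Pgk1 was −0.099, Hif1a −0.063, Pdk1 −0.082 and Pck1 −0.060. With limma-voom Pgk1 was −0.011 and Fbp1 −0.15, and with the replicate block Pgk1 was −0.011 and Fbp1 −0.19. Without those 3 libraries, 6 of the 28 values are 2 knockouts over control replicate 1 alone, where Aldoa was 0.21, Tpi1 0.017, Pgam1 0.012, Egln1 0.046, Fbp1 −0.94 and G6pc −0.94. With each library left out, Hk1 ranged from −0.14 to 0.34, Gpi1 from −0.22 to 0.037, Aldoa from −0.34 to 0.025, Pgk1 from −0.13 to 0.13, Hif1a from −0.039 to 0.13, P4ha1 from −1.11 to 0.12, Pdk1 from −0.056 to 0.13, Fbp1 from −0.96 to 0.80, Pck1 from −0.17 to 0.35 and G6pc from −0.52 to 0.68. The cause of these changes was not tested.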

Other observations

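Car12, a membrane carbonic anhydrase related to Car9, had 3.64, 20.9 and 28.1 CPM in knockouts (replicates 1 to 3), against 6.91, 7.29 and 7.32 CPM in controls. Angptl4, an inhibitor of lipoprotein lipase induced by hypoxia and fasting, had 8.20, 21.3 and 33.5 CPM in knockouts and 13.6, 9.33 and 11.7 CPM in controls. Both lay above every control in knockout replicates 2 and 3 and below every control in replicate 1, and neither passed the test (edgeR adjusted p = 0.348 and 0.387). They were chosen after their values were seen.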
